A study of Mus musculus with 8 samples.

Results

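The early lymphoid and B lineage program described here is a set of 38 mouse genes that multipotent progenitors and early lymphoid cells use on the way to B and T cells. Its members are the interleukin-7 receptor and other surface proteins, a Notch receptor with its targets, the recombination genes, the transcription factors that prime or fix a lymphoid fate, and the parts of the early B and T cell antigen receptors. The members are a named gene list with no threshold on measured values. The list was drawn up with earlier results of these data known, so the direction in which it lies is not independent evidence. Each gene was read from the probe set of highest mean among those that the array annotation assigns to that gene alone, dim probe sets included. This gave a value for 35 of the 38 members, out of 18193 genes read in the same way. The expression of Il2rg, Tcf7 and Lck was not analysed here.

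The study compared multipotent progenitors of wild type mice (4 samples) with those of FLT3-ITD mice (4 samples). In each genotype the titles number the samples 1, 2 and 3 and give the other as 1 with 037 in brackets. The latter is called replicate 037 here and was counted as a sample of its own; the labels do not explain how it relates to replicate 1, so a fit with replicates 1 and 037 averaged was run as well. FLT3-ITD denotes a duplicated stretch, in tandem, within the cytokine receptor FLT3, a lesion found in acute myeloid leukaemia. The sources used here do not give how the allele was made or whether the mice carried 1 or 2 copies. All mice were females on the C57BL6 background, 8 to 10 weeks old, and none had a stated treatment. The cells were sorted from bone marrow as positive for CD48, c-Kit and Sca-1 and negative for CD150 and lineage markers, a fraction the labels call lympho-myeloid multipotent progenitors. Their RNA was amplified, labelled with biotin and hybridised to 1-colour arrays, and values are log2 signals. The labels do not state that the 4 samples of a genotype are different mice. The p-values therefore measure the spread among these arrays alone, and it may be technical.

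Lymphoid priming is the low-level switching on of lymphoid genes in progenitors that can still make myeloid cells. Factors such as Ikaros, SATB1, MEF2C and BCL11A prepare this state, interleukin-7 receptor signalling and the B lineage factors EBF1 and PAX5 carry cells into the B lineage, and Notch signals direct cells in the thymus to the T lineage. Recombination of antigen receptor genes by RAG1 and RAG2, with terminal transferase (encoded by Dntt) adding bases at the joints, begins in the lymphoid-primed progenitors and their offspring.

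The RefSeq promoters of 5 members are printed first, because the results turn on these genes: Il7r and Satb1, which passed the test, and the recombination genes Rag1, Rag2 and Dntt. Each is the 250 bases before an annotated transcription start (build GRCm38.p6), written 5' to 3' on the gene's strand and ending next to the start. Capitals mark letters that match 1 of 3 searched motifs on either strand: the E box in the forms CAGCTG or CAGGTG, bound by E proteins; TGGGAA, a core shared by Ikaros and the Notch effector RBPJ; and TTCNNNGAA, the core that STAT factors bind.
Il7r, chr15:9529877-9530126, minus strand: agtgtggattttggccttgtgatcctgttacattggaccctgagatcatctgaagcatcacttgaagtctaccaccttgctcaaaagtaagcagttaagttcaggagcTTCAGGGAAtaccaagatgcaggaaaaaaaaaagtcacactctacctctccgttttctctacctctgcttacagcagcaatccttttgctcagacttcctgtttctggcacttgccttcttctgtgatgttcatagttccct
Satb1, chr17:51826589-51826838, minus strand: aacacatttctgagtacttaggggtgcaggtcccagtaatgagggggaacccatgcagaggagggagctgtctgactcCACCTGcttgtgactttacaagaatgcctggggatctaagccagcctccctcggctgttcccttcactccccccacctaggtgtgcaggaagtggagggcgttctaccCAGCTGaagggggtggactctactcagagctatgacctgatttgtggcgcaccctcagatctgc
Rag1, chr2:101649533-101649782, minus strand: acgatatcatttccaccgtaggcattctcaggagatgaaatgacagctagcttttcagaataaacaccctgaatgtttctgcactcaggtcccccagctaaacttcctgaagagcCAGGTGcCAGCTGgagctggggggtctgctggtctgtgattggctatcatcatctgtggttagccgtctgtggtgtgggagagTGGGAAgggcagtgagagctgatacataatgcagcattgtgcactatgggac
Rag2, chr2:101624462-101624711, plus strand: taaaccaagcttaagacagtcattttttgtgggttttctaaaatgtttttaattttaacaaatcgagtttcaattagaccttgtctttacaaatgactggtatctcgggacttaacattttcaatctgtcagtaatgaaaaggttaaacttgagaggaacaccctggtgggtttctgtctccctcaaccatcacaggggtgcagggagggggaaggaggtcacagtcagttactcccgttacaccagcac
Dntt, chr19:41029025-41029274, plus strand: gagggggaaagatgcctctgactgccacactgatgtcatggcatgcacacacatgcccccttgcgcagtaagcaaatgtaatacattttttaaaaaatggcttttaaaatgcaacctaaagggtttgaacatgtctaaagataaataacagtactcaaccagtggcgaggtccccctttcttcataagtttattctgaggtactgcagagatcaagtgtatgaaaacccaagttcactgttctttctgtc

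The Il7r window held 1 STAT core, 142 bases before the start. The Rag1 window held 2 neighbouring E boxes at 135 and 128 bases and 1 TGGGAA at 52 bases. The Satb1 start shown is 1 of 5 in the table, chosen because its window held 2 E boxes, at 172 and 64 bases, and another of the 5 held 1 TGGGAA. None of the 3 motifs was found in the windows of Rag2 and Dntt. The 29 members with a start in the table had 43 starts and include Il2rg, Tcf7 and Lck, whose expression was not analysed. Among these 43 promoters, an E box was found in 11 (25.6%), TGGGAA in 9 (20.9%) and TTCNNNGAA in 3 (6.98%). The shares among all 32851 promoters of the same length were 27.7%, 21.6% and 7.02%. Counted by gene, with a match at any start, the shares were 37.9%, 31% and 10.3% of the 29 members and 30.6%, 24.1% and 8.13% of all 27025 genes. The members thus lay slightly below the background by promoter and above it by gene, and the difference was not tested. A gene with more starts has more windows that can match, and the members had more starts per gene than all genes. A match is a description of the letters and not a measured site.

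Array medians lay between 5.98 and 6.05, and the arrays correlated with each other at 0.948 to 0.981 over all probe sets. FLT3-ITD replicate 1 stood apart from the others (r of 0.948 to 0.959 with each of the other 7), and FLT3-ITD replicate 037 had the largest gap between 3' and 5' Gapdh probe sets (2.99, against 1.82 to 2.29 on the other 7 arrays), a measure of RNA length. FLT3-ITD replicate 1 had the lowest of the 8 values for 10 of the 35 members, the most of any array, and the highest for 3. The sort markers Kit and Slamf1 did not pass the test, with differences (FLT3-ITD minus wild type, here and below) of -0.47 ± 0.16 (SE; adjusted p = 0.467 by limma) and -0.21 ± 0.30 (adjusted p = 0.893). Slamf1, which encodes CD150, was under the median of every array. Cd48, which like Kit encodes a marker the gate selects for, rose by 1.06 ± 0.11 (SE; limma, adjusted p = 0.00911). Ly6a, which encodes Sca-1, had no probe set assigned to it alone and was not measured.

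As a group the members lay lower in the FLT3-ITD samples. Of the 35, 2 fell past an adjusted p of 0.05 (Il7r and Satb1) and none rose, where limma's test was fitted and adjusted over all 18193 genes. Over all genes 0.0989% fell and 0.275% rose. At an unadjusted p of 0.05, 13 members were lower and 1 was higher (Cd22), against 3.28% and 5.05% of all genes. The 4 samples of each genotype did not overlap for 10 members that were lower and for 1 that was higher, against 2.02% and 3.41% of all genes. In 23 of 35 members the difference was below 0, against 44.1% of all genes, and the members' median difference was -0.27, against 0.03 for all genes. In bulk samples such as these, fewer cells of a type and less RNA per cell cannot be told apart.

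**Figure D1:**
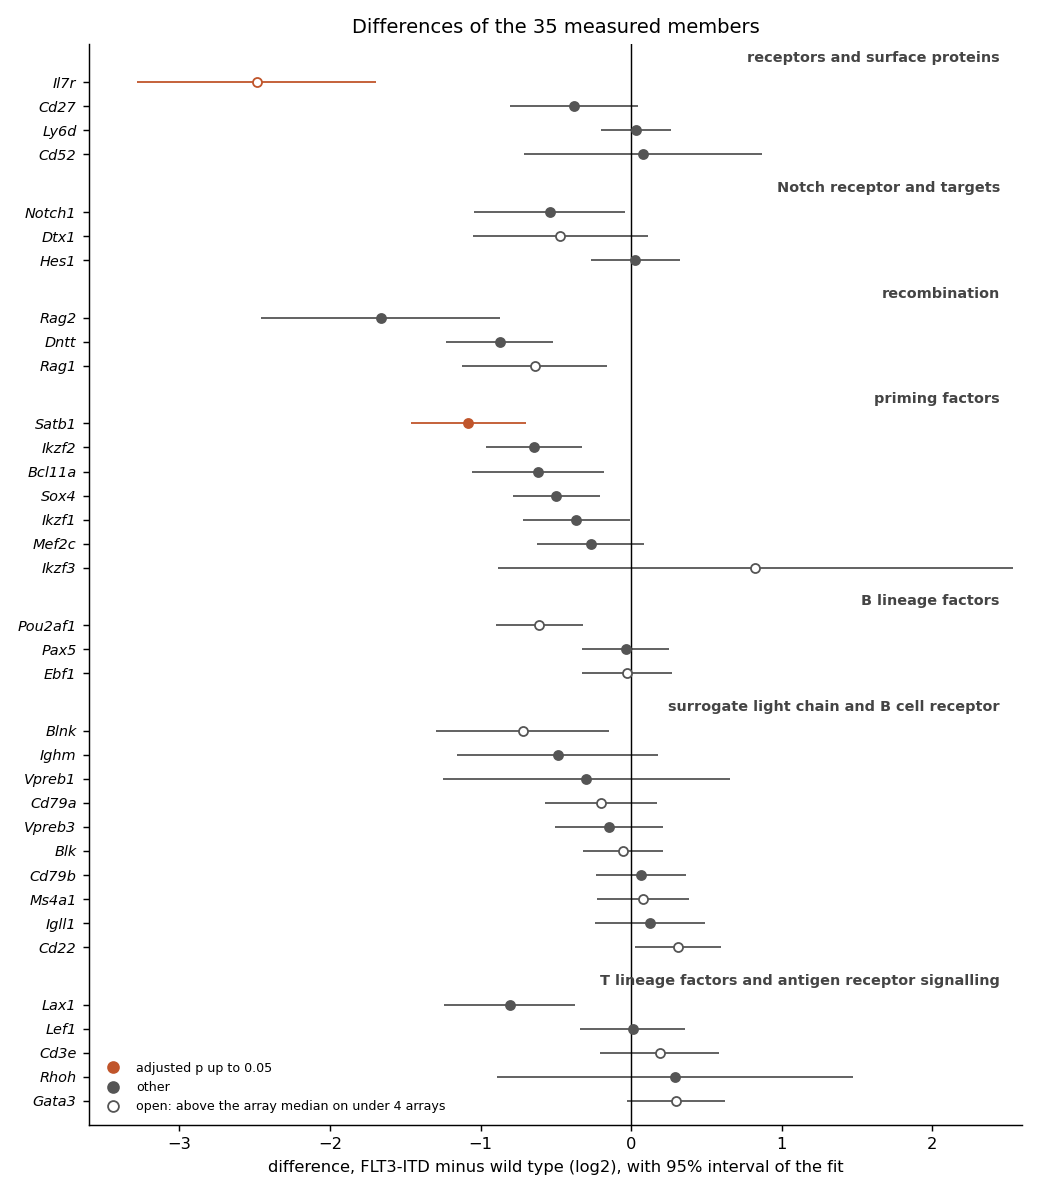
Difference in log2 signal (FLT3-ITD minus wild type, n = 4 samples each) for the 35 measured members, ordered by role, with 95% confidence intervals from limma. Orange marks the 2 members with an adjusted p at or under 0.05, Il7r and Satb1, and open symbols mark the 13 members above the array median on fewer than 4 of 8 arrays.

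The same differences were set out sample by sample, which is not further evidence for the shift. The reference is the wild type mean of each gene, so the wild type samples lie near 0 by construction. Set against the wild type mean of each gene, the median deviation of the 35 members was -0.06, 0.02, -0.06 and 0.09 in wild type replicates 1, 2, 3 and 037. In the FLT3-ITD replicates with the same labels it was -0.25, -0.19, -0.17 and -0.33. All 4 FLT3-ITD samples thus lay below all 4 wild type samples, while the median over all genes stayed between -0.03 and 0.04 in the 8 samples. The members below their wild type mean numbered 21 to 30 of 35 in the FLT3-ITD samples and 11 to 22 in the wild type samples, so these ranges overlap.

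**Figure D2:**
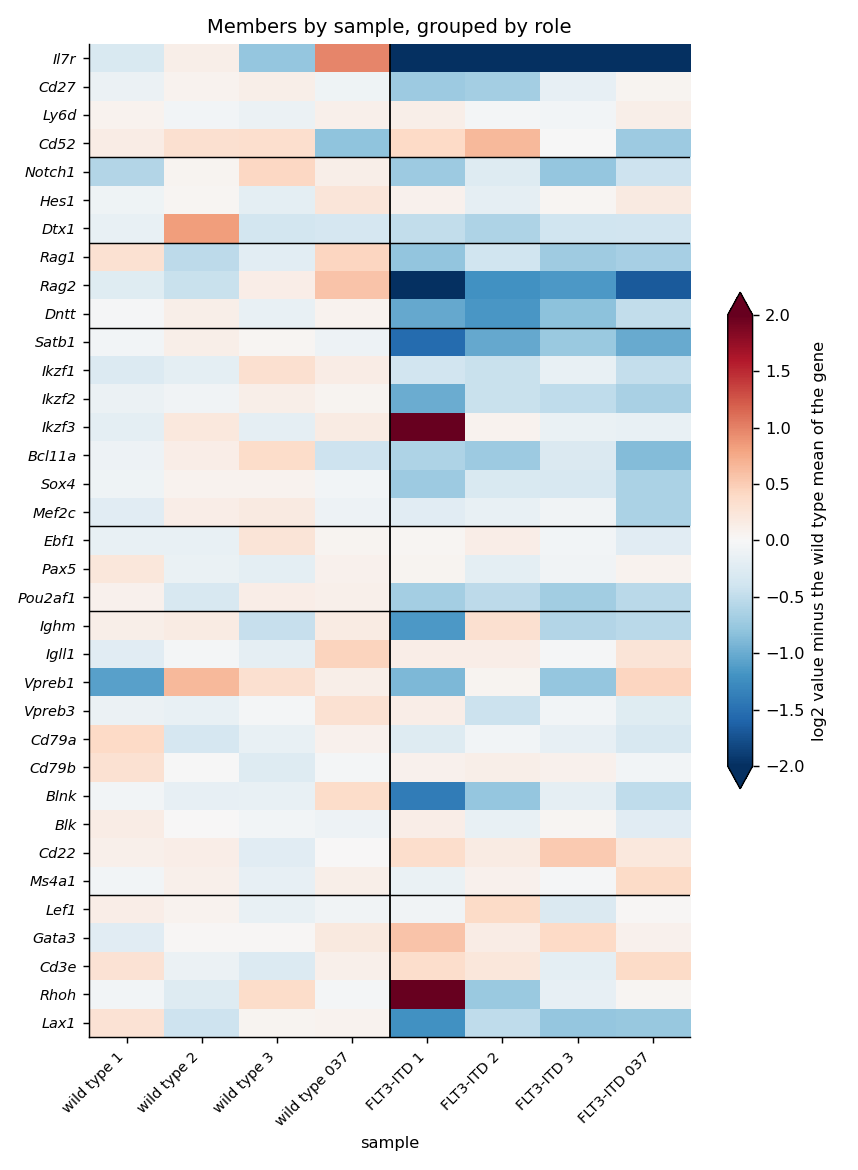
Log2 signal of each of the 35 members in each of the 8 samples, minus the gene's wild type mean, with the colour scale ending at differences of 2 either way. The lower values of the FLT3-ITD samples lie in Il7r, the recombination genes and most priming factors, and the high values of Ikzf3 and Rhoh lie in FLT3-ITD replicate 1.

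Among receptors and surface proteins, Il7r was the member with the largest difference. Il7r encodes the alpha chain of the interleukin-7 receptor, which B cell precursors need to grow. Its log2 signal was 5.63, 6.06, 5.16 and 6.91 in wild type replicates 1, 2, 3 and 037, and 3.08, 3.88, 3.35 and 3.48 in the FLT3-ITD replicates. Every FLT3-ITD sample was lower than every wild type sample, with more spread among the wild type samples. The means were 5.94 ± 0.75 and 3.45 ± 0.33 (SD, n = 4 each), so Il7r fell by 2.49 on the log2 scale (SE 0.35, 95% interval -3.28 to -1.69; limma, adjusted p = 0.0309). An exact permutation test of the 8 samples, two-sided, gave p = 0.0286, the smallest that 4 against 4 can give. The probe set is dim: it was above the array median on 2 arrays, both wild type. The deposited values carry no detection calls, so whether the FLT3-ITD signals lie above background is not known and no fold is given. The other Il7r probe set, above the median on no array, differed by -0.48. Leaving out 1 sample kept the call without wild type replicate 3 or 037 and ended it without any of the other 6 (adjusted p of 0.0265 to 0.105 over the 8 runs).

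The other surface members did not pass the test. Cd27, a co-stimulatory receptor that rises as multipotent progenitors become lymphoid-primed, was bright in all samples. Its signal was 10.97 to 11.20 in the wild type samples and 10.35, 10.41, 10.92 and 11.14 in FLT3-ITD replicates 1, 2, 3 and 037. The groups overlapped through FLT3-ITD replicate 037, and the difference was -0.38 ± 0.19 (SE; limma, adjusted p = 0.660). Ly6d, a marker of B-biased common lymphoid progenitors, was 6.57 to 6.78 in wild type and 6.63 to 6.81 in FLT3-ITD samples (difference 0.03, 95% interval -0.20 to 0.27). Cd52, a small glycoprotein on lymphocytes and other leukocytes, had means of 8.98 ± 0.54 and 9.06 ± 0.61 (SD, n = 4 each; difference 0.08, 95% interval -0.71 to 0.87), with sample 037 the lowest of both genotypes at 8.18 and 8.25.

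Genes that work with these receptors were looked at next. Of 11 interleukin-7 receptor signalling genes measured, such as Jak1, Jak3, Stat5b and Bcl2, none passed the test by limma. Their median difference was -0.18, with 8 below 0, against 44.1% of all genes. At an unadjusted p of 0.05, 2 were lower and 1 was higher, against 3.28% and 5.05% of all genes. Stat5a, which carries the receptor's signal to the nucleus, had the smallest p of the 11 and differed by -0.44 ± 0.15 (SE; limma, adjusted p = 0.462). Measured genes of lymphoid-primed progenitors numbered 10, most of them for surface proteins. Of the 10, 2 fell and 8 were below 0 (median -0.23), against 0.0989% and 44.1% of all genes. Flt3 itself, the receptor whose high level marks these progenitors, fell from 10.54 to 9.37, by 1.17 ± 0.19 (SE; limma, adjusted p = 0.0497), and Tespa1, an adaptor in T cell receptor signalling, fell from 7.92 to 7.28, by 0.64 ± 0.10 (limma, adjusted p = 0.0427). With dim genes left out of the fit Tespa1 no longer passed (limma, adjusted p = 0.0546), while Flt3 did (0.0406). The calls of these genes were not examined under the other settings. Flt3 is the altered gene and was read by 1 probe set, and whether that probe set reads both forms of the gene alike was not tested.

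All 3 recombination genes were lower in FLT3-ITD samples, with a median difference of -0.87. None passed the adjusted threshold, while all 3 had an unadjusted p under 0.05, against 3.28% of all genes lower at that p. Dntt, terminal deoxynucleotidyl transferase, was bright in both groups, at 12.26, 12.40, 12.13 and 12.35 in wild type replicates 1, 2, 3 and 037 and at 11.26, 11.12, 11.47 and 11.80 in the FLT3-ITD replicates. The groups did not overlap, and FLT3-ITD replicate 037 lay nearest to the wild type samples. The difference was -0.87 ± 0.16 (SE; 95% interval -1.23 to -0.52), a 1.83-fold lower signal (limma, adjusted p = 0.0773). The probe set read for Dntt is of a type that can cross-hybridise, and the other Dntt probe sets, 2 in number, differed by -0.97 and -1.11, again without overlap. Without FLT3-ITD replicate 037 Dntt passed (limma, adjusted p = 0.0317).

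Rag2, the partner of RAG1 in the recombinase, differed more but varied more. Its signal was 7.01, 6.81, 7.38 and 7.82 in the wild type replicates and 4.63, 6.05, 6.11 and 5.58 in the FLT3-ITD replicates. No FLT3-ITD sample reached a wild type value, and FLT3-ITD replicate 1 was the lowest. The difference was -1.66 ± 0.35 (SE; 95% interval -2.46 to -0.87; limma, adjusted p = 0.141). Rag1, which carries the catalytic site of the recombinase, was not above the array median on any array. It read 5.18, 4.37, 4.68 and 5.31 in wild type and 4.10, 4.48, 4.17 and 4.22 in FLT3-ITD samples, so that wild type replicate 2 lay inside the FLT3-ITD range. The difference was -0.64 ± 0.21 (SE; limma, adjusted p = 0.424).

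The enzymes that close the breaks made by the recombinase did not lie to 1 side. Of 11 end-joining genes measured, 5 were lower and 6 higher, none passed at an adjusted or an unadjusted p of 0.05, and the median difference was 0.05. Nhej1, a factor that stabilises ends for ligation, had the smallest p, with a difference of 0.27 ± 0.13 (SE; limma, adjusted p = 0.659).

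**Figure D3:**
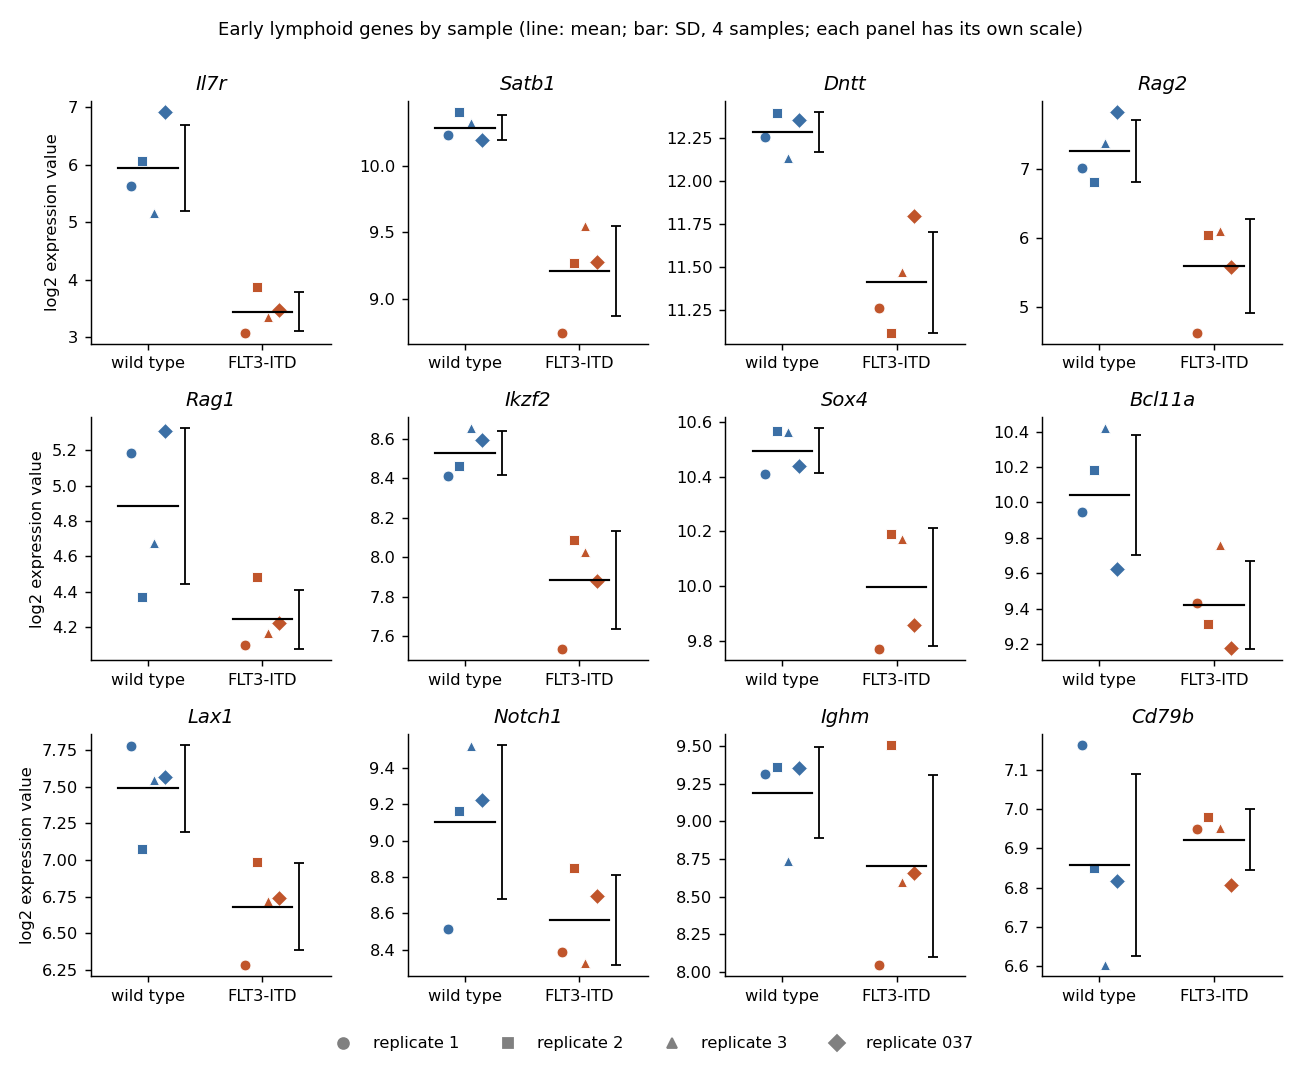
Log2 signal of 12 members in each sample, wild type and FLT3-ITD side by side, with a line at the group mean, a bar for the SD (n = 4) and a marker shape for the sample label. The groups are apart for Il7r, Satb1, Dntt, Rag2, Ikzf2, Sox4 and Lax1 and overlap for Rag1, Bcl11a, Notch1, Ighm and Cd79b.

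Of the 7 priming factors, 6 were lower and Satb1 fell past the threshold, with a median of -0.50. Satb1, a chromatin organiser that lymphoid priming needs, read 10.23, 10.41, 10.33 and 10.19 in wild type replicates 1, 2, 3 and 037. It read 8.74, 9.27, 9.54 and 9.28 in the FLT3-ITD replicates. The wild type samples lay close together and well above all FLT3-ITD samples. Satb1 fell by 1.08 (SE 0.17, 95% interval -1.46 to -0.70), or 2.11-fold, between means of 10.29 ± 0.10 and 9.21 ± 0.34 (SD, n = 4 each; limma, adjusted p = 0.0415). The other Satb1 probe sets, 4 in number, differed by -1.49 to -1.24, and none overlapped between genotypes. Leaving out 1 sample kept the call without FLT3-ITD replicate 1 or 3 and ended it without any of the other 6 (adjusted p of 0.0287 to 0.155). Averaging replicates 1 and 037 of each genotype, which share the number 1, ended the call for Satb1 (difference -1.04; limma, adjusted p = 0.0619) and kept it for Il7r (0.0392).

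The Ikaros family genes of the set, Ikzf1, Ikzf2 and Ikzf3, differed among themselves. Ikzf2, encoding Helios, read 8.41, 8.46, 8.65 and 8.59 in wild type and 7.54, 8.09, 8.03 and 7.88 in FLT3-ITD samples, with no overlap. It differed by -0.65 ± 0.14 (SE; limma, adjusted p = 0.151), and the other Ikzf2 probe sets by -0.76 and -0.85. Ikzf1, encoding Ikaros, had means of 9.34 ± 0.28 and 8.98 ± 0.15 (SD, n = 4 each), with the groups overlapping. Ikzf1 differed by -0.36 ± 0.16 (SE; limma, adjusted p = 0.585), and its second probe set by -0.01. Ikzf3, encoding Aiolos of later B cells, was the 1 priming factor with a positive difference (0.83 ± 0.75, SE), and it rested on 1 sample. FLT3-ITD replicate 1 read 7.90, while the other 7 samples read 4.20 to 4.61, and without it the difference was -0.07.

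The remaining priming factors were bright and lay lower without passing. Sox4, a factor of early B and T cell development, read 10.41 to 10.57 in wild type and 9.77 to 10.19 in FLT3-ITD samples, with no overlap (difference -0.50 ± 0.13, SE; limma, adjusted p = 0.246). Of the other Sox4 probe sets, 1 differed by -1.36 without overlap, and the rest differed by -0.14 to 0.08 with overlap. Bcl11a, needed for B cell development, read 9.95, 10.18, 10.42 and 9.63 in wild type and 9.43, 9.32, 9.76 and 9.18 in FLT3-ITD samples. Its groups overlapped through FLT3-ITD replicate 3, and the difference was -0.62 ± 0.19 (SE; limma, adjusted p = 0.386). Mef2c, which favours lymphoid over myeloid output, was 10.25 to 10.66 in wild type and 9.84 to 10.41 in FLT3-ITD samples (difference -0.27 ± 0.16, SE; limma, adjusted p = 0.717). The other Mef2c probe sets differed by -0.47 to -0.10, and only the lowest held the genotypes apart.

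E proteins, whose targets include many lymphoid genes, and their ID inhibitors were looked at as well. Of 7 E protein and ID genes measured, 1 rose and none fell. Id2, which blocks E proteins and so opposes B cell development, rose from 5.16 to 8.92, by 3.76 ± 0.28 (SE; limma, adjusted p = 0.00158), while the median of the 7 was 0.11. Of 22 other lymphoid transcription factors, 1 passed and the median was -0.07. At an unadjusted p of 0.05, 2 of them were lower and 5 higher, against 3.28% and 5.05% of all genes. Irf8, a factor of dendritic, monocytic and B cells, rose from 6.97 to 9.61, by 2.64 ± 0.31 (SE; limma, adjusted p = 0.0113). Ikzf4, of the Ikaros family, was higher without overlap, by 2.24 ± 0.52 (SE; limma, adjusted p = 0.187). Ikzf5 of the same family differed by -0.35 ± 0.29 (SE; limma, adjusted p = 0.808), with overlap.

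The Notch members did not pass the test. Notch1, the receptor that directs T lineage entry, read 8.51, 9.16, 9.52 and 9.22 in wild type and 8.39, 8.85, 8.33 and 8.69 in FLT3-ITD samples. Wild type replicate 1 lay inside the FLT3-ITD range, and the difference was -0.54 ± 0.22 (SE; limma, adjusted p = 0.558). The other Notch1 probe set differed by -0.73 with no overlap. Dtx1, encoding the Notch regulator Deltex, was dim and read 5.35 to 6.56 in wild type and 5.11 to 5.33 in FLT3-ITD samples (difference -0.47 ± 0.25, SE; limma, adjusted p = 0.686). The groups did not overlap by a narrow margin, and wild type replicate 2 held the high end. Hes1, a direct Notch target and repressor, did not differ beyond its spread (5.95 to 6.39 against 5.96 to 6.32, difference 0.03, 95% interval -0.27 to 0.32). Of 26 other Notch pathway genes measured, none passed, and the median difference was 0.03. At an unadjusted p of 0.05, 1 of the 26 was lower and 2 were higher, against 3.28% and 5.05% of all genes. Lfng, a glycosyltransferase that tunes the receptor's choice of ligand, had the smallest p, with a difference of 0.80 ± 0.20 (SE; limma, adjusted p = 0.240).

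The B lineage factors themselves were at low signal in both genotypes. Ebf1, which starts the B lineage program, was not above the array median on any array, at 4.68 to 5.09 in wild type and 4.62 to 4.97 in FLT3-ITD samples (difference -0.02, 95% interval -0.32 to 0.27). Pax5, which fixes B lineage identity, read 5.99 to 6.42 and 5.99 to 6.25 (difference -0.04, 95% interval -0.32 to 0.25). Neither of these probe sets differed beyond the spread of the samples at these signals. The other Ebf1 probe sets, 4 in number, differed by -0.36 to 0.09 with overlap, the lowest at an unadjusted p of 0.022 (limma, adjusted p = 0.528). The other Pax5 probe set differed by 0.29, with overlap. Pou2af1, a B cell co-activator, read 2.80 to 3.25 in wild type and 2.43 to 2.59 in FLT3-ITD samples, without overlap (difference -0.61 ± 0.13, SE; limma, adjusted p = 0.139). No array had Pou2af1 above its median.

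The 10 parts of the surrogate light chain and B cell receptor split 6 lower and 4 higher, and none passed. Ighm, the mu heavy chain, read 9.31, 9.36, 8.74 and 9.35 in wild type and 8.04, 9.51, 8.60 and 8.66 in FLT3-ITD samples. FLT3-ITD replicate 2 was the highest of all 8 samples, so the groups overlapped, and the difference was -0.49 ± 0.29 (SE; limma, adjusted p = 0.723). The other Ighm probe sets, 10 in number, differed by -0.14 to 0.17. Vpreb1, part of the surrogate light chain, ranged from 5.86 to 7.60 in wild type and from 6.05 to 7.37 in FLT3-ITD samples (difference -0.30, 95% interval -1.25 to 0.66). Its partner Igll1, encoding lambda 5, differed by 0.13 ± 0.16 (SE) and Vpreb3, a chaperone of the light chain, by -0.15 ± 0.16. None of these 3 held the genotypes apart.

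The signalling parts of the receptor were mostly dim. Cd79a and Cd79b, the paired signalling chains, differed by -0.20 (95% interval -0.57 to 0.17) and 0.06 (-0.23 to 0.36), and of the pair only Cd79b exceeded the array median on 4 or more arrays. Blnk, the linker that the receptor uses, read 5.60, 5.51, 5.51 and 6.03 in wild type and 4.26, 4.88, 5.48 and 5.15 in FLT3-ITD samples. The groups stood apart by a narrow margin at FLT3-ITD replicate 3, and the difference was -0.72 ± 0.25 (SE; limma, adjusted p = 0.470). Cd22, an inhibitory co-receptor, was the 1 member higher in every FLT3-ITD sample, at 4.23 to 4.59 in wild type and 4.63 to 4.99 in FLT3-ITD samples (difference 0.31 ± 0.13, SE; limma, adjusted p = 0.550). Its signal was under the median of every array. Blk, a B cell Src-family kinase, and Ms4a1, encoding CD20, differed by -0.05 (95% interval -0.32 to 0.21) and 0.08 (-0.23 to 0.39), likewise under every array's median. The other Ms4a1 probe set, also under every median, differed by -0.65, with wild type replicate 1 at 4.88 and the other wild type samples at 2.91 to 3.00. Of 16 other B cell receptor signalling genes measured, such as Syk and Btk, none passed, and the median was -0.08. At an unadjusted p of 0.05, 1 of the 16 was lower and 2 were higher, against 3.28% and 5.05% of all genes. Fcrla, an Fc receptor-like protein of B cells, had the smallest p, with a difference of 0.66 ± 0.19 (SE; limma, adjusted p = 0.322).

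Among the 5 measured T lineage members, 4 had positive differences and none passed. Lax1, an adaptor that dampens antigen receptor signalling, was the exception in direction, with a signal of 7.78, 7.07, 7.55 and 7.57 in wild type and 6.28, 6.99, 6.72 and 6.74 in FLT3-ITD samples. The groups did not overlap, wild type replicate 2 and FLT3-ITD replicate 2 lying closest. The difference was -0.81 ± 0.19 (SE; 95% interval -1.24 to -0.37), a 1.75-fold lower signal (limma, adjusted p = 0.192). Rhoh, a GTPase of T cell receptor signalling, had a difference of 0.29 ± 0.52 (SE) that came from FLT3-ITD replicate 1 at 9.51, with the other 7 samples at 6.73 to 7.84, and without that sample it was -0.29. Gata3, a T lineage factor, read 5.35 to 5.77 in wild type and 5.67 to 6.14 in FLT3-ITD samples (difference 0.30, 95% interval -0.03 to 0.63). Lef1, a partner of TCF1, differed by 0.01 (95% interval -0.34 to 0.36). Cd3e, a chain of the T cell receptor complex, differed by 0.19 (95% interval -0.20 to 0.58) and was under the median of every array.

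The brightness of the members bears on how far these values can be read. Of the 35 members, 22 exceeded the median of the array on 4 or more arrays, and of these 15 were lower and 7 higher, with a median of -0.33. Fitting only genes above that level, 10762 in all, 0.177% of genes fell, and among the members only Satb1 did (limma, adjusted p = 0.0350), since Il7r was no longer tested. The 13 dim members had a median of -0.05, with 8 lower and 5 higher.

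A second reading of the same genes came from further probe sets. The 35 members were covered by 87 probe sets, with 19 members read by more than 1, and 31 of the 52 other probe sets were lower in FLT3-ITD samples. The share below 0 over all probe sets was not counted, while over all genes it was 44.1%. Ighm, Sox4 and Bcl11a gave 10, 7 and 6 of the 52, so these are not independent readings. When all 45037 probe sets were tested apart, 0.0289% fell and 0.111% rose, and no probe set of any member passed in either direction. The calls of Il7r (limma, adjusted p = 0.0538) and Satb1 (0.0683) were thus lost when more probe sets were tested at once. Satb1, Dntt, Ikzf2, Mef2c and Notch1 kept 1 direction in all their probe sets. Bcl11a did not: of its 6 others 4 were lower (-0.70 to -0.39) and 2 were higher, by 0.51 and 1.53, the last resting on FLT3-ITD replicates 1 and 2 (9.17 and 9.78, against 5.97 to 6.83 in the other 6 samples). The 7 others of Sox4 spread from -1.36 to 0.08, and only the lowest of them held the genotypes apart.

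**Figure D4:**
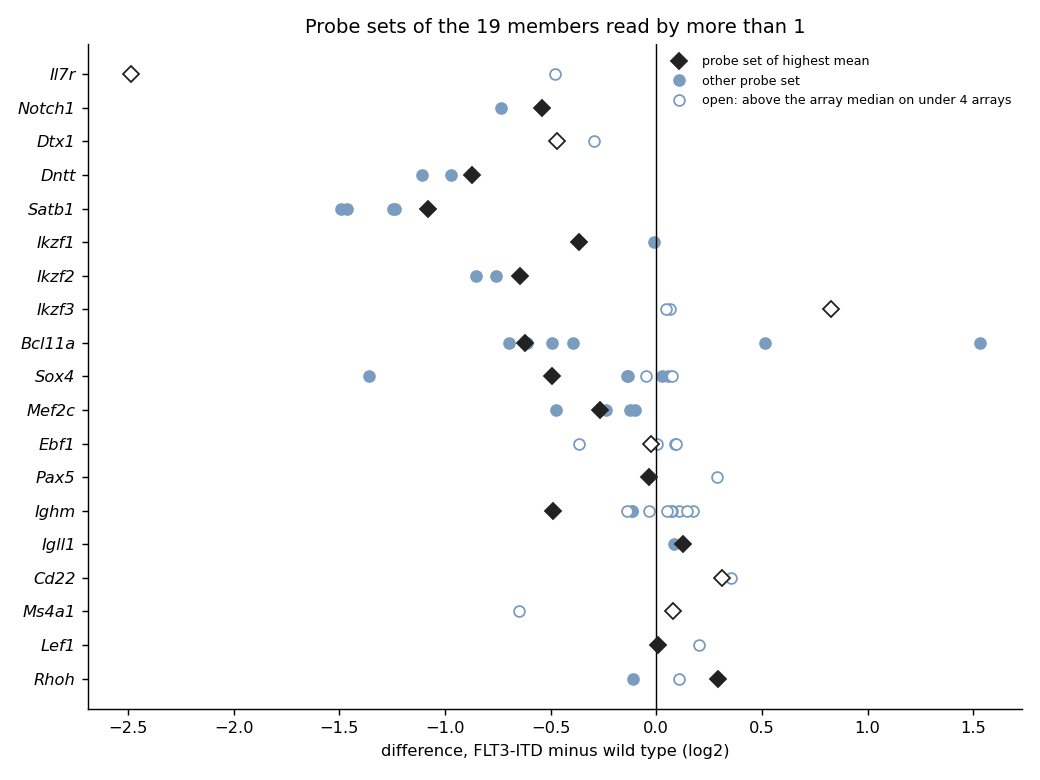
Difference in log2 signal (FLT3-ITD minus wild type) of every probe set of the 19 members read by more than 1, with a diamond for the probe set of highest mean and circles for the others, open where the probe set was above the array median on fewer than 4 arrays. All 5 Satb1 and all 3 Dntt probe sets lie below 0, and 2 of the 7 Bcl11a probe sets lie above 0.

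Markers of other cells moved with genotype in the same samples. The sums given here are of linear signal over the measured markers of a list. Of 9 dendritic cell markers all 9 were higher and 4 passed the test, with a sum of 942 to 1078 in wild type and 6872 to 15154 in FLT3-ITD samples. The 4 were Cd74, H2-Aa, H2-Ab1 and H2-Eb1, genes of MHC class II and its invariant chain. They make up most of the sum in the FLT3-ITD samples. Itgax, Ciita, Zbtb46, Xcr1 and Cd209a did not pass (limma, adjusted p of 0.0950 to 0.673). All 9 granulocyte-monocyte progenitor markers were higher and 1 passed (7341 to 9151 against 9900 to 15314). All 6 erythroid markers had differences below 0 and 2 passed, Hbb-b2 and Slc4a1 (sum 1111 to 1478 against 287 to 504). Most of the wild type sum was Hbb-b2. Hba-a1, Klf1 and Epor overlapped between genotypes, with differences of -0.01, -0.03 and -0.05. The part of these marker differences in the lower lymphoid values was not tested. For mature B cells (8 measured) the sums were 643 to 1391 in wild type and 728 to 1039 in FLT3-ITD samples. They were 1238 to 1585 and 1363 to 1656 for T cells (12 measured), and 652 to 924 and 754 to 1139 for NK cells (6 measured). For plasmacytoid dendritic cells (6 measured) they were 905 to 1229 and 912 to 1655. These sums overlapped between genotypes, and no gene of these lists passed. Of single genes, only Klrk1 (NK cells) and Fcrla (mature B cells) did not overlap. Both were higher in every FLT3-ITD sample, by 2.12 and 0.66 (limma, adjusted p = 0.139 and 0.322). Of the 12 T cell markers, 5 exceeded the array median on 4 or more arrays (Cd247, Cd4, Cd8a, Cd6 and Thy1), while Cd3d, Cd3g, Cd8b1, Cd5, Cd28 and Trat1 were under it on all 8. Mature neutrophil markers also overlapped (6 measured, sum 609 to 1897 and 306 to 1075), with 3 lower and 3 higher (differences of -2.39 to 0.19) and none passing.

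Calls at the edge of the threshold moved with the settings. Il7r, Satb1 and Dntt were the 3 members that passed in any fit over genes, all lower, and no member rose in any of them. With the replicate label as a block, Il7r (limma, adjusted p = 0.0734) and Satb1 (0.113) did not pass, and over all genes 20 passed in place of 68. Averaging all probe sets of a gene gave Il7r -1.48 (adjusted p = 0.0716) and Dntt -0.98 (0.0482). With a prior that follows signal and is robust to outlying variances, all 3 passed, Dntt at an adjusted p of 0.0366.

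**Figure D5:**
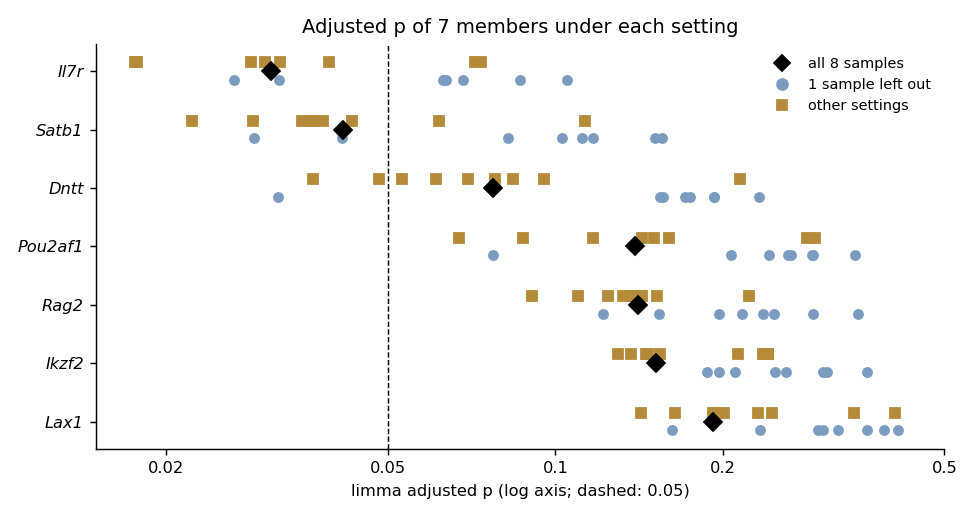
Adjusted p from limma on a log axis for the 7 members of smallest adjusted p, with a diamond for all 8 samples, circles for fits with 1 sample left out and squares for other settings. Il7r and Satb1 lie on both sides of 0.05 depending on the fit, Dntt mostly above it, and the other 4 above it throughout.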

How the data were processed

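RNA of sorted mouse progenitors, 4 wild type and 4 FLT3-ITD samples, was measured on 1-colour arrays. The deposited values are log2 signals made with RMA, per the submitters' processing notes, and the sources used here do not give its version. RMA as a method corrects background, quantile-normalizes and summarises probes, which compresses differences of dim probe sets. The members and gene lists were chosen with earlier results of these data known.

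Of 45101 probe sets, 64 controls were left out, 34945 had 1 annotated gene and 932 with several were not used for genes. Each gene took its probe set of highest mean. Groups were compared with lmFit and eBayes (limma 3.58.1, R 4.3.3) over 18193 genes without a covariate, adjusted by Benjamini-Hochberg at 0.05. On simulated data of the same size, 10%, 68%, 88% and 96% of genes changed by 0.5, 1, 2 and 3 (log2) were recovered, with 5 false calls, so small changes are often missed. All 38 members are named. Of each further list, results are given for genes that passed (at most 3), else for the gene of smallest p. Ikzf4 and Ikzf5 were added as further Ikaros family genes. Alternatives were a filter on dim probe sets, the replicate label as block, samples 1 and 037 averaged, array centring, quantile normalization, averaged or specific probe sets, trend and robust priors, array weights and each sample left out. Array data give no read depth, and the number of arrays limits the precision. Promoters came from RefSeq (GRCm38.p6), and figures were drawn with matplotlib 3.10.9.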

Additional observations from a re-analysis of the deposited data

Results flagged for a closer look

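In each genotype, the gap between an end sample and its neighbour was set against the range of the 4 samples for the 35 members, with Dixon's 95% critical value. Chance passes about 1 in 20 groups, and 4 of 70 did. Cd52 in wild type replicate 037 read 8.18, below the other wild type samples at 9.13 to 9.31. Ikzf3 in FLT3-ITD replicate 1 read 7.90, above the others at 4.25 to 4.47. Pou2af1 in wild type replicate 2 read 2.80, below the others at 3.20 to 3.25. Ighm in wild type replicate 3 read 8.74, below the others at 9.31 to 9.36.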

How the results depend on the processing

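No member rose in any setting tried. Il7r, Satb1 or both passed in all fits over genes but 5; when all probe sets were tested at once, neither did (adjusted p = 0.0538 and 0.0683 by limma). The 5 were the replicate block (0 members lower, with 20 genes in all, 4 lower and 16 higher), leaving out wild type 1, wild type 2 or FLT3-ITD 2 (0 members each), and leaving out FLT3-ITD 037, where Dntt passed. The filter on dim probe sets left 1 member called (Satb1) and 15 of 22 below 0, and averaging samples 1 and 037 left 1 (Il7r). With 1 sample left out, 28 to 66 genes passed over all genes, 2 to 13 lower and 26 to 53 higher, with 0 to 1 members lower. Deviations from the group means correlated at 0.04, 0.03, 0.06 and 0.09 between same-labelled samples. Between samples with different labels they correlated at -0.067 to 0.044. All these values are small, and whether the labels pair the samples was not tested. Of the members' results under other settings, 541 kept direction and call, 16 lost the call, 3 gained it and 22 changed sign, among 11 members that did not pass. Pax5 was 0.12 and Ms4a1 -0.28 with averaged probe sets, and Lef1 was -0.013 with array weights. With 1 sample left out, the ranges crossing 0 were -0.0038 to 0.066 (Ly6d), -0.19 to 0.35 (Cd52), -0.037 to 0.11 (Hes1), -0.067 to 1.15 (Ikzf3), -0.076 to 0.060 (Ebf1), -0.10 to 0.042 (Pax5), -0.021 to 0.17 (Cd79b), -0.11 to 0.0059 (Blk), -0.018 to 0.15 (Ms4a1), -0.11 to 0.11 (Lef1) and -0.29 to 0.64 (Rhoh). The cause of these moves was not tested. The 13 dim members were above the array median on fewer than 4 arrays. Without detection calls their distance from background is not known, which limits what can be read for them.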
